A study of Lathyrus oleraceus with 16 samples.

Results

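The genes described here are the 200 genes of pea (Pisum sativum, also named Lathyrus oleraceus) that were most clearly lower in reactivated shoot apical meristems alone, out of 48559 gene IDs in the table and 23979 with enough counts to be tested. They were chosen on the group means of all 16 libraries. Each count was divided by a size factor of its library, the median ratio of its counts to the geometric mean over libraries, and the result is called the normalized count. A gene was taken if the means of GPA and Proliferative each lay within 0.5 of Pruned on the scale of log2(mean + 10), and if Reactivated lay 0.8 or more below the lowest of the other 3. That was met by 350 genes, and the 200 with the largest gap between Reactivated and the lowest other group are the members. All 200 members passed the filter on low counts. Since the choice used the group means in every comparison, the gap, the fold changes and the counts of calls are descriptions of how the members were chosen and carry no test.

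All plants were wild type of the cultivar Cameor, raised under long days of 16 h light in a greenhouse kept between 15 °C at night and 21.5 °C in daytime, and each group has 4 libraries that the labels call biological replicates. Reactivated meristems (labelled active) came from arrested plants 24 h after every fruit and flower had been taken off. GPA is the label of arrested meristems, taken as the plants entered proliferative arrest. Pruned meristems (active) were taken on the same day as GPA from plants that had been pruned throughout and never sensed seeds. Proliferative meristems (active) came from young plants with a first flower bud and no open flower. Meristems were collected without a microscope by stripping off leaves and flower buds, so tissue around the meristem can be present, and fewer cells of a type cannot be told apart from less RNA per cell. In Reactivated, the day of collection, the removal of fruits and flowers and the renewed activity cannot be told apart.

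Proliferative arrest is the end of flower production in a plant that flowers once: after a number of fruits have set, the shoot apical meristem stops forming new flowers while its cells remain alive. Developing seeds are needed for it, and removing the fruits lets an arrested meristem start again, which was long known in pea. In Arabidopsis the timing of arrest depends on the FRUITFULL and APETALA2 transcription factors, and arrested meristems have been likened to dormant buds. The genes here stood, by choice, at like levels in arrested and in never-arrested meristems and were lower at 24 h of reactivation.

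Library totals ran from 16264221 to 24435174 counts. The IDs, which start with Psat, could not be tied to a name: 0 of them matched the RefSeq table of 65673 genes of the assembly CAAS_Psat_ZW6_1.0, so no function, position or sequence is given, and neither pathway lists nor markers of the meristem or of surrounding tissue could be run. The libraries were strand specific, but the name of the count table says that counting did not use strand, so a gene and an overlapping or antisense neighbour could not be separated, and near-identical copies are uncertain. Pruned 2, Proliferative 3 and Proliferative 4 stood apart from the other libraries by 23 genes that had 20 or more normalized counts in each of the 3 and at least 10-fold less in any other library. Their summed normalized count was 42326 in Pruned 2, 19279 in Proliferative 3 and 8017 in Proliferative 4. In the other 13 it ran from 0.8195 to 448. Of these genes 0 are members, which their definition sets in advance, since GPA was too low in them to meet the rule. Some members were also high in Pruned 2 and Proliferative 3.

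**Figure D1:**
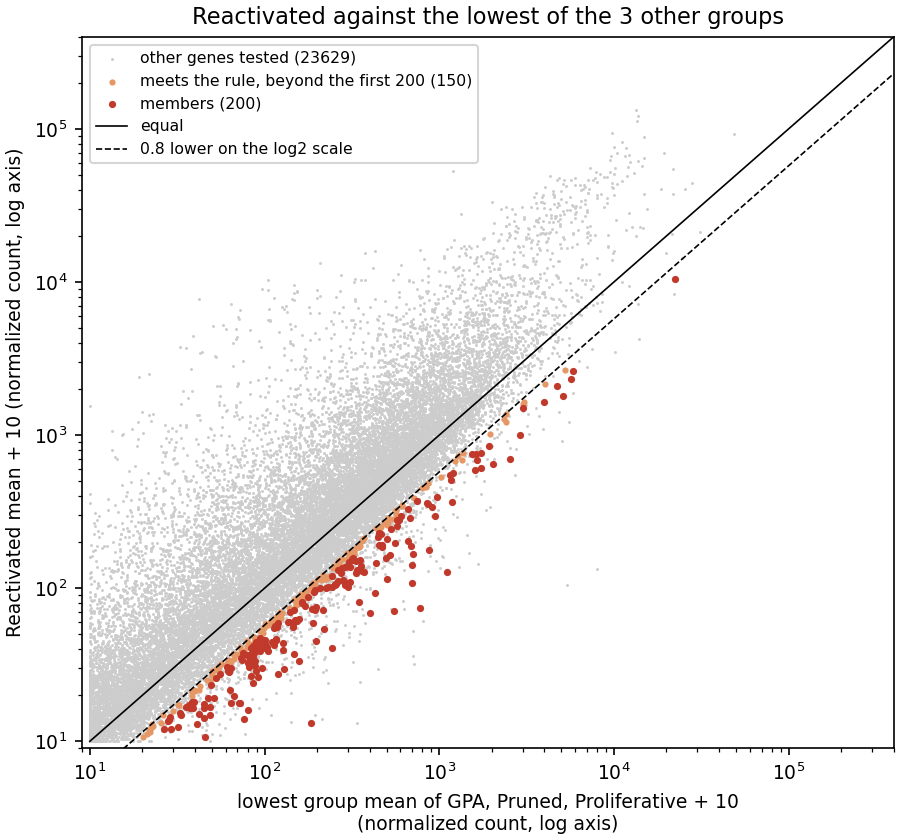
Each dot is a gene, with the mean of the Reactivated libraries on the vertical axis and the lowest group mean of GPA, Pruned and Proliferative on the horizontal axis (normalized count + 10, log axes). The 200 members in red and the other 150 genes that met the rule in orange lie below the dashed line, 0.8 under equality on the log2 scale.

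The members formed a graded set, and most kept a part of their reads in Reactivated. The gap between Reactivated and the lowest other group ran from 3.82 to 0.99 on the log2(mean + 10) scale, with a median of 1.27. It was 2 or more in 22 members, between 1.5 and 2 in 33, between 1 and 1.5 in 138 and under 1 in 7. As a share of the mean of the other 3 groups, the Reactivated mean ranged from 1.33% to 46.5% with a median of 31.5%. It was under 10% in 13 members and under 25% in 60. The fewest reads were those of Psat4g079200, which was picked out after its values were seen, with 2 over the 4 Reactivated libraries. Its normalized counts were 2.62, 0, 0 and 0 in Reactivated 1 to 4, 38.5, 18.7, 49.5 and 36.8 in GPA, 46.7, 36.8, 60.004 and 31.1 in Pruned and 46.4, 33.7, 25.4 and 45.3 in Proliferative. Its reads came from Reactivated 1 alone, and the lowest value outside Reactivated was in GPA 2. In all, 8 members had 0 counts in at least 1 Reactivated library, and the median member had 185 reads over the 4.

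The last gene inside the limit and the first outside differed little from each other. Psat1g077080, at rank 200 with a gap of 0.99, had 34.9 ± 16.5 normalized counts in Reactivated, 93.4 ± 21.6 in GPA, 78.8 ± 11.3 in Pruned and 78.9 ± 7.205 in Proliferative (SD, n = 4 each). Psat7g215880, at rank 201 with a gap of 0.98, had 31.9 ± 14.9, 97.2 ± 39.2, 72.8 ± 84.2 and 73.9 ± 99.9 in the same order. The SD of Psat7g215880 exceeded its mean in Pruned and in Proliferative, since Pruned 2 and Proliferative 3 carried most of its reads.

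Summed over the set, the members held 0.185 ± 0.0208% of all counts in Reactivated, against 0.824 ± 0.0346% in GPA, 0.702 ± 0.0692% in Pruned and 0.678 ± 0.0387% in Proliferative (SD, n = 4 each). By library the share was 0.163, 0.202, 0.171 and 0.204% in Reactivated 1 to 4 and between 0.777% and 0.861% in GPA. It was between 0.653% and 0.802% in Pruned and between 0.641% and 0.729% in Proliferative. The Reactivated libraries thus lay below the other 12 without overlap, in genes chosen to be low there. Pruned overlapped with GPA and with Proliferative, whereas all GPA libraries lay above all Proliferative ones. A share of all counts scales by library totals, with which the median gene tested was lower in Reactivated too. That median log2 fold change was -0.582 over GPA, -0.454 over Pruned and -0.462 over Proliferative. The summed normalized count of the members was 45648.5 ± 4585 in Reactivated and 136966 ± 11250 in GPA. It was 131756 ± 19502 in Pruned and 125598 ± 8223 in Proliferative (SD, n = 4 each). The median member had 58.3 ± 7.07 normalized counts in Reactivated libraries, 191 ± 18.1 in GPA, 191 ± 30.7 in Pruned and 188 ± 10.7 in Proliferative (SD over libraries, n = 4).

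**Figure D2:**
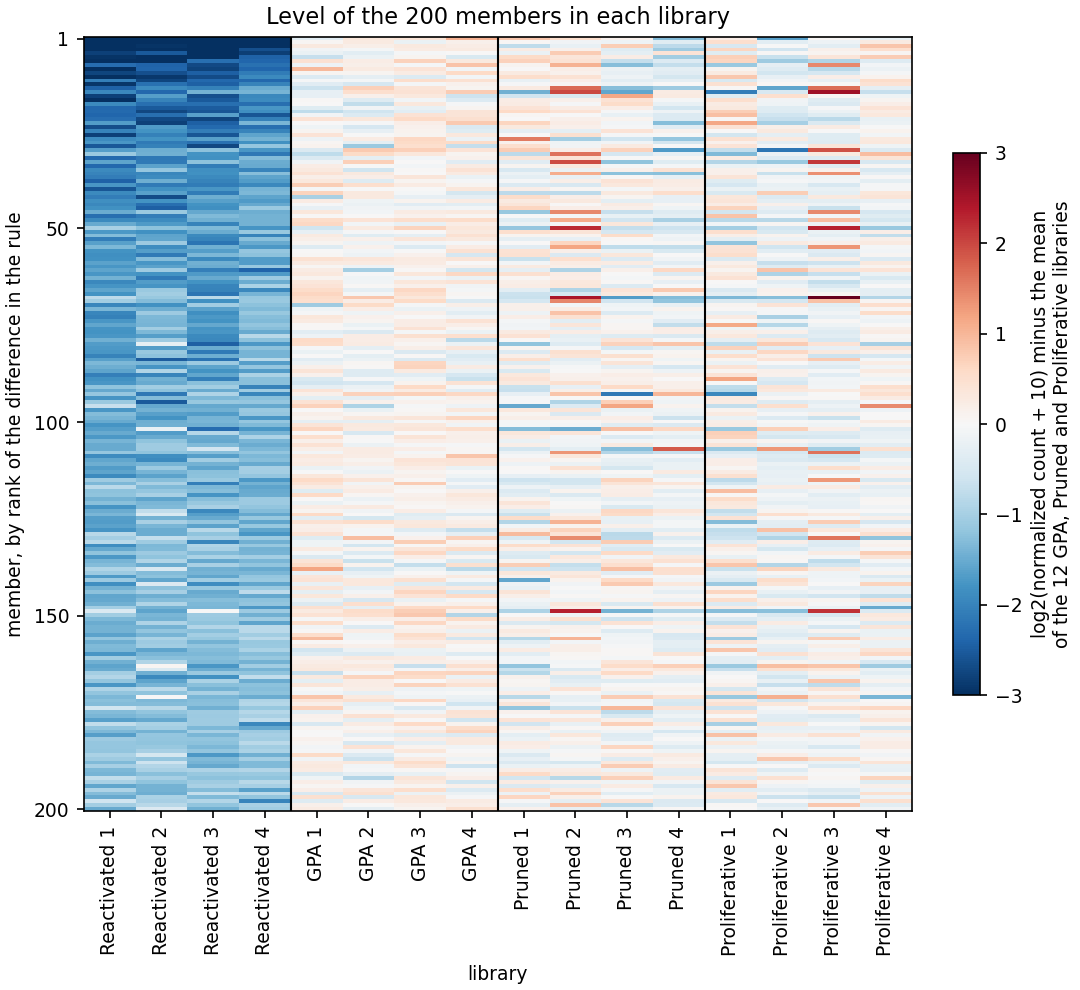
Each row is a member, ordered by its rank, and each column a library. Colour gives log2(normalized count + 10) minus the mean of the 12 GPA, Pruned and Proliferative libraries, with values beyond 3 drawn as 3. In the Reactivated columns 799 of 800 cells lie below that mean, the exception being Psat3g084400 in Reactivated 2, and red cells in Pruned 2 and Proliferative 3 mark members that were high in those libraries.

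The share of reads left in Reactivated was lower in members with few reads than in those with many, while the gap, which the added constant shrinks, was alike. Counts are not scaled by gene length, so they measure how many reads support a value and not how strongly genes are expressed relative to each other. The 27 members that averaged 1000 or more normalized counts over the other 3 groups had a median gap of 1.27. The 108 between 100 and 1000 had 1.28 and the 65 under 100 had 1.22. Without the added constant of 10, the Reactivated mean was a median of 36.99%, 33.5% and 22.2% of the other groups in these 3 classes. With the constant, the rule asks for a lower share in members with few reads, and like gaps give a lower share there. This order is therefore not read as a larger drop in members with few reads. In Reactivated, 72 members rested on fewer than 100 reads over the 4 libraries.

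The members with the largest gaps showed it in every Reactivated library. Psat3g108200, at rank 1, had normalized counts of 2.62, 5.18, 1.42 and 3.38 in Reactivated 1 to 4, 166, 268, 275 and 439 in GPA, 377, 300.1, 231 and 78.6 in Pruned and 246, 60.7, 216 and 178 in Proliferative. Its 10 reads over all Reactivated libraries were 1.33% of the mean of the other groups, and the next lowest value was in Proliferative 2. The fitted log2 fold change was -6.43 (SE 0.64) for Reactivated over GPA, -6.24 (SE 0.64) over Pruned and -5.76 (SE 0.64) over Proliferative. Among the 10 members named by rank or count, it alone no longer met the rule without Pruned 2, Proliferative 3 and Proliferative 4: its Proliferative mean stood at -0.54 relative to Pruned on the log2(mean + 10) scale, just outside the 0.5 allowed, with a gap of 3.64.

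Psat2g028560, at rank 2, had normalized counts of 57.7, 53.1, 79.2 and 67.5 in Reactivated 1 to 4, 876, 1017, 724 and 932 in GPA, 867, 779, 758 and 647 in Pruned and 1201, 671, 755 and 1008 in Proliferative. No library of the other groups came near the Reactivated values, the lowest being Proliferative 2. The fitted log2 fold change of Reactivated was -3.78 (SE 0.197) over GPA, -3.596 (SE 0.196) over Pruned and -3.86 (SE 0.197) over Proliferative. Psat6g192400, at rank 3, had 101, 148, 103 and 122 in Reactivated 1 to 4, 1471, 1363, 1474 and 1403 in GPA, 707, 1023, 1992 and 695 in Pruned and 857, 1194, 962 and 2159 in Proliferative. Its Reactivated and GPA libraries were each close together, whereas Pruned 3 and Proliferative 4 stood well above the other libraries of their groups. The log2 fold change of Reactivated over Pruned was -3.26 (SE 0.36).

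Ranks 4 to 6 repeated the pattern. Psat5g203240 had 62.98, 34.9, 55.2 and 90.03 in Reactivated 1 to 4, 569, 595, 731 and 740.1 in GPA, 736, 684, 468 and 287 in Pruned and 969, 409, 685 and 875 in Proliferative. Psat3g012680 had 98.4, 123, 70.8 and 97.9 in Reactivated 1 to 4, 655, 605, 732 and 759.6 in GPA, 657, 1283, 611 and 995 in Pruned and 581, 768, 789 and 791 in Proliferative. In both, all 4 Reactivated libraries were under all others, although Pruned 4 was low for Psat5g203240 and Proliferative 1 low for Psat3g012680. Psat5g182000 had 28.9, 27.2, 21.2 and 45.01 in Reactivated 1 to 4, 174, 251, 301 and 206 in GPA, 429, 374, 334 and 133 in Pruned and 474, 176, 372 and 489.8 in Proliferative, again with Pruned 4 and Proliferative 2 as the lowest libraries of their groups. The log2 fold change of Reactivated over Pruned was -3.18 (SE 0.33) for Psat5g203240, -3.21 (SE 0.23) for Psat3g012680 and -3.39 (SE 0.39) for Psat5g182000. Pruned 4 was the lowest Pruned library in all of these 6 members except Psat3g012680, and Proliferative 2 the lowest Proliferative library in all except Psat6g192400 and Psat3g012680.

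The 4 members with the highest counts had smaller gaps than the leading ones. Psat7g092000, at rank 151, had 9568, 9181, 11261 and 11676 in Reactivated 1 to 4, 24014, 27715, 28300.2 and 36538 in GPA, 28738, 34307, 15805 and 18940.1 in Pruned and 18418, 20025, 21415 and 29155 in Proliferative. The highest Reactivated value was 11676 and the lowest of the others 15805. This gene alone gave 22.8% of the summed member counts in Reactivated, 21.3% in GPA, 18.6% in Pruned and 17.7% in Proliferative. Its log2 fold change was -1.48 (SE 0.21) over GPA, -1.26 (SE 0.21) over Pruned and -1.14 (SE 0.21) over Proliferative.

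Psat6g000400, at rank 127, averaged 2596 ± 413 in Reactivated, 8074 ± 618 in GPA, 7047 ± 569.6 in Pruned and 5855 ± 537 in Proliferative. Psat4g164440, at rank 97, averaged 2314 ± 424, 6439.8 ± 1035, 6683 ± 1375 and 5639.6 ± 698 in the same order. Psat3g138440, at rank 125, averaged 2069 ± 332, 4701 ± 847, 6183 ± 1647 and 6102 ± 969.7 (SD, n = 4 throughout). None of the 3 had a Reactivated library that reached the range of the others. The log2 fold change of Reactivated over Pruned was -1.47 (SE 0.12) for Psat6g000400, -1.56 (SE 0.16) for Psat4g164440 and -1.61 (SE 0.18) for Psat3g138440.

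**Figure D3:**
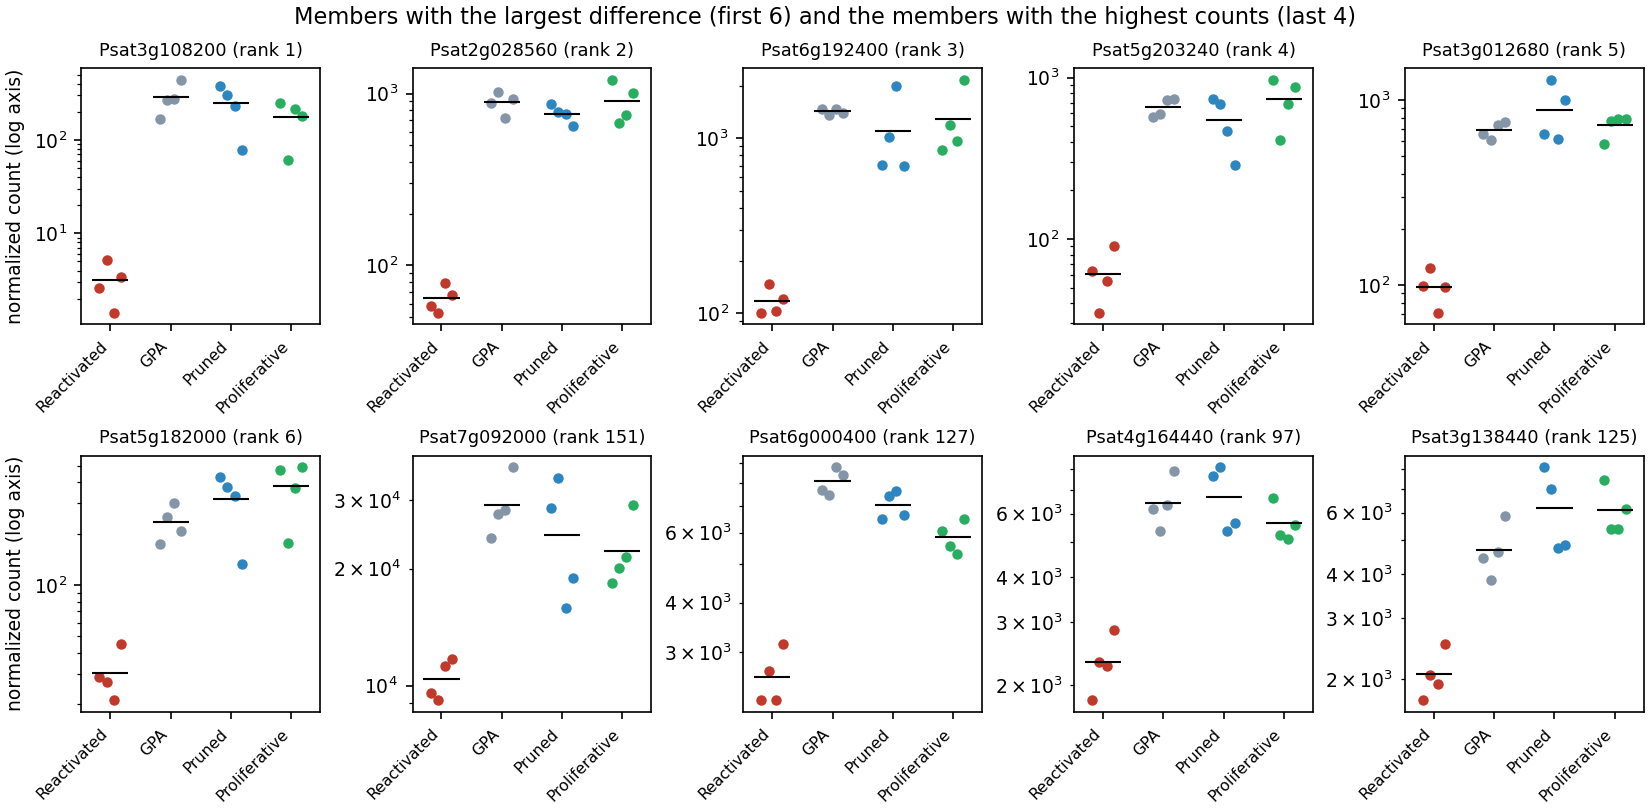
Normalized counts of the 6 members with the largest gap and the 4 with the highest counts, on log axes that differ between panels. Points are the 4 libraries of a group and bars the group mean. In all 10 panels the Reactivated points lie below all others.

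Across the set, 170 of the 200 members had all 4 Reactivated libraries below all 12 others, where 8.22% of all genes tested did. Reactivated was separated from GPA in 193 members (34.3% of genes tested), from Pruned in 178 (17.8%) and from Proliferative in 175 (17.9%). Of the 30 members with overlap, 10 had a single other library at or under the highest Reactivated value, 13 had 2 or 3 and 7 had 4 to 6. A Reactivated library was the lowest of the 16, alone or tied, in 197 members. Psat6g226440, Psat3g106880 and Psat2g178320 were the exceptions, and in Psat1g076840 Pruned 1 was tied with Reactivated 2, 3 and 4 at 0. These genes are named after their values were seen. Psat6g226440 had 7.87, 10.4, 14.2 and 6.75 in Reactivated 1 to 4, 31.96, 86.9, 82.5 and 65.02 in GPA, 85.5, 55.7, 80.3 and 7.37 in Pruned and 24.3, 2.25, 200.1 and 31.4 in Proliferative, so that Pruned 4 and Proliferative 2 were as low as Reactivated. The lowest library was Reactivated 1 in 78 members, Reactivated 3 in 51, Reactivated 2 in 44 and Reactivated 4 in 24, with ties given to the lower replicate number. The rule asks for the lowest mean in Reactivated, so the count of 197 is largely set by the choice. No share over all genes tested is given for that count or its split by library, and nothing is read from them.

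In edgeR's quasi-likelihood fit across all genes and all 16 libraries, with Benjamini-Hochberg adjustment and a threshold of 0.05, 194 members were called lower in Reactivated than in GPA, where 35.8% of genes tested were. Against Pruned 193 were called lower (21.8% of genes tested), and against Proliferative 192 (22.6%). All 3 calls were met by 191 members, as by 10.9% of genes tested. The median log2 fold change of the members was -1.75 over GPA, -1.69 over Pruned and -1.65 over Proliferative. The medians over all genes tested were -0.00563, -0.0799 and -0.0863. The median standard error of a member's fold change was 0.28 over Pruned. The 3 comparisons share the Reactivated libraries, and since the rule used their group means nothing is read from these counts.

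Among GPA, Pruned and Proliferative the members were level by choice, and their remaining differences were small. The spread between the highest and lowest of the 3 group means had a median of 0.35 and reached 0.84 on the log2(mean + 10) scale. GPA was the highest of the 3 in 90 members, Pruned in 49 and Proliferative in 61. The edgeR fit called 8 members higher and 5 lower in GPA than in Pruned, where 31.6% and 36.6% of genes tested were. It called 13 higher and 6 lower in GPA than in Proliferative (30.6% and 35.1%). Between Pruned and Proliferative it called 0 members (3.69%), with 8 at an unadjusted p under 0.05 (14.8%). DESeq2 also called 0 members there, and of 25388 genes it called 782 higher and 768 lower in Pruned. At least 1 of the edgeR calls among these 3 groups was made for 27 members, as for 73.5% of genes tested.

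How level GPA was relative to Pruned depended on the scaling. With library totals in place of scaling factors, the median log2 fold change of GPA over Pruned was 0.25 for the members and 0.101 for all genes tested, against 0.0431 and -0.103 with TMM factors. The members therefore lay 0.15 above the median of all genes with totals and 0.15 above it with TMM factors. In Reactivated over Pruned they lay at -1.62 relative to that median with totals and at -1.61 with TMM factors. A change of scaling moves all genes of a library alike, so these relative values say nothing further about the members.

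**Figure D4:**
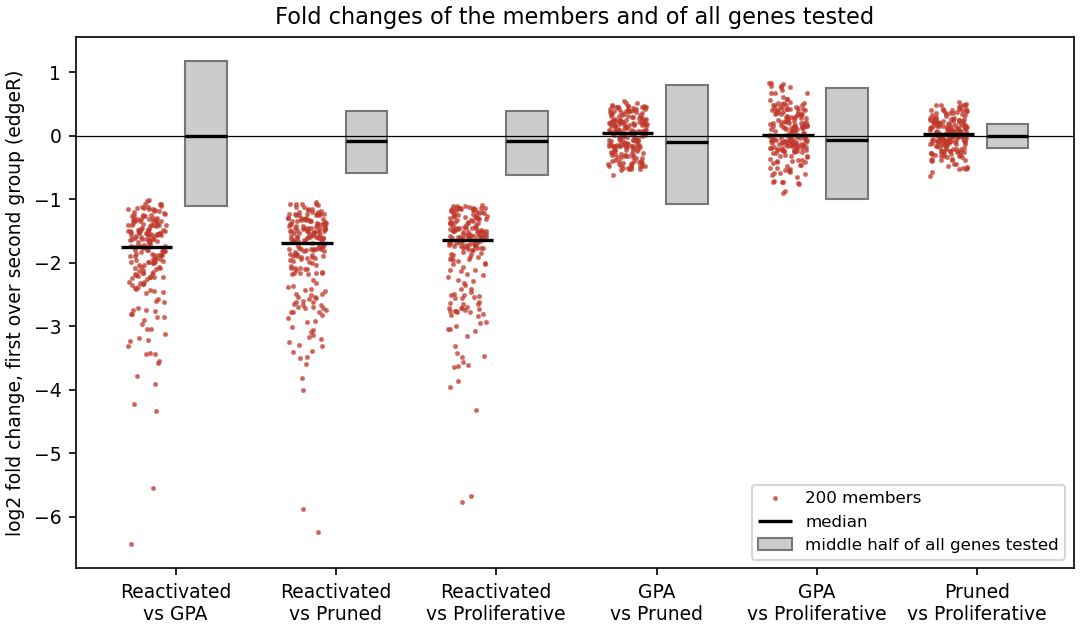
Log2 fold changes of the 200 members (red points, with the median as a bar) in the 6 comparisons, beside the range between the quartiles of all genes tested (grey boxes, with the median). The members lie below -1 in the 3 comparisons of Reactivated and around 0 in the other 3, as the rule requires.

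Some members were high in the same 2 libraries, 1 of Pruned and 1 of Proliferative. In 17 members, 8.5% of the set, Pruned 2 and Proliferative 3 were each at least 2-fold above the mean of the other libraries of their group (normalized count + 10), as in 1.27% of all genes tested. These members were picked by their values and get no test. Their median normalized count was 28.9, 32.4, 35.4 and 31.5 in Reactivated 1 to 4 and 98.3, 129.7, 123 and 125 in GPA. It was 68.6, 379, 44.7 and 71.2 in Pruned and 66.3, 59.97, 499 and 78.6 in Proliferative. The other Pruned and Proliferative libraries thus lay between the Reactivated and the GPA values. Of the 3 members whose lowest library was not a Reactivated one, Psat3g106880 and Psat2g178320 are among them. Psat3g106880 had 19.1 to 27.6 normalized counts in Reactivated and 54.2 to 104 in GPA. It had 342 in Pruned 2 and 506 in Proliferative 3, with 10.2 to 30.8 in the other Pruned libraries and 15.5 to 24.95 in the other Proliferative ones.

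Without Pruned 2, Proliferative 3 and Proliferative 4, all 17 of these members no longer met the rule. In that fit 11 of them were called higher in GPA than in Pruned (29.6% of genes tested), with a median log2 fold change of 0.89, and 10 were called lower in Reactivated than in Pruned (18.2%), with a median of -0.94. Against Proliferative 8 were called lower in Reactivated (15.8%), with a median of -0.898. Against GPA 17 were called lower in Reactivated (35%). In Psat3g106880 and Psat5g119320, singled out after their values were seen, Reactivated was no longer the lowest group: Psat3g106880 averaged 23.1 in Reactivated, 78.3 in GPA, 19.1 in Pruned and 15.9 in Proliferative, and Psat5g119320 averaged 18.8 in Reactivated, 51.6 in GPA, 11.6 in Pruned and 8.89 in Proliferative. Of the other 183 members, 179 were called lower in Reactivated than in Pruned without the 3 libraries, with a median of -1.69, against -1.67 with all libraries. Against Proliferative 166 of these 183 were called lower in Reactivated. In all, 44 members failed the rule without these libraries and 156 met it. Of the 44, 27 then had GPA more than 0.5 above Pruned, 18 had Proliferative more than 0.5 from Pruned and 18 had a gap under 0.8, and a member can fail in several ways.

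**Figure D5:**
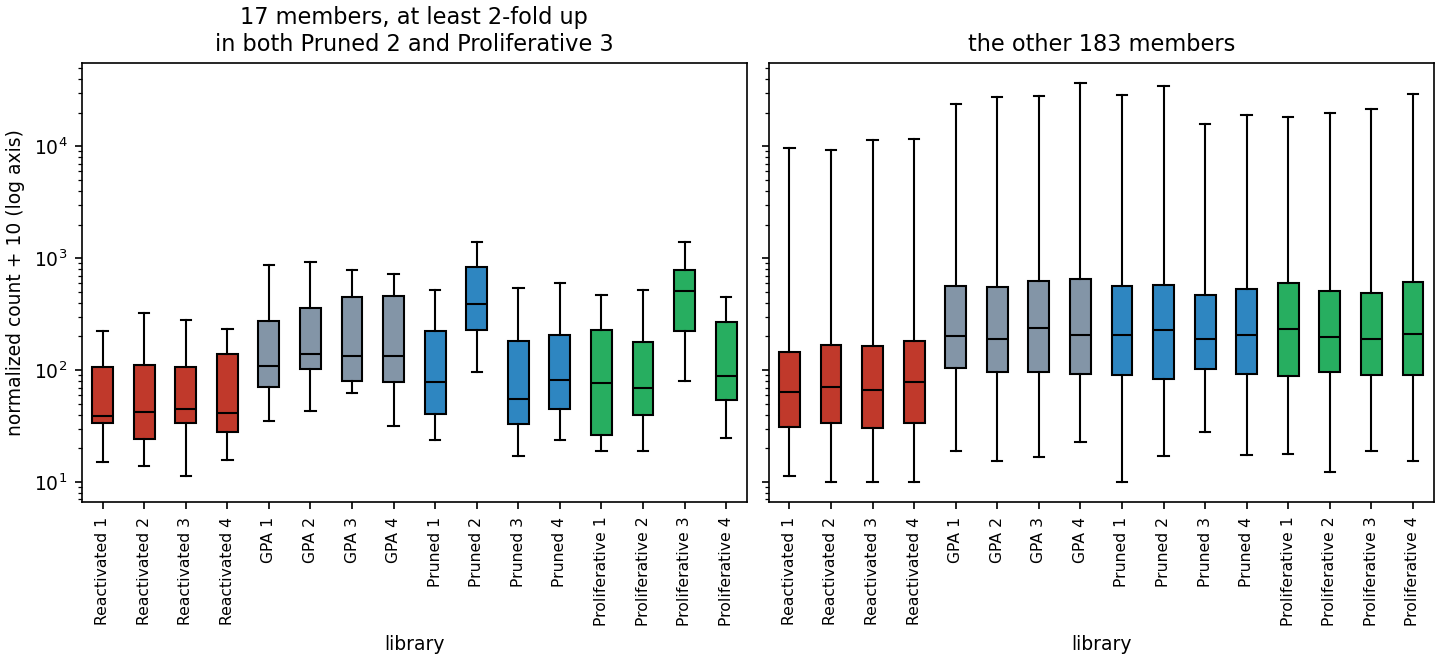
Normalized count + 10 (log axis) in each library, for the 17 members that were at least 2-fold up in both Pruned 2 and Proliferative 3 (left) and for the other 183 (right). Boxes span the quartiles with the median as a line, and whiskers reach the lowest and highest member. On the left the 2 libraries rise above the rest of their groups, and on the right the 12 libraries outside Reactivated are level.

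In 27 members a single library held over 50% of the summed normalized count of its group. This was so in Pruned for 20 members, in Proliferative for 20 and in GPA for 1, Psat7g218040. These counts were not made over all genes tested, so they do not set the members apart from other genes. The coefficient of variation between the libraries of a group had a median over the members of 28.4% in Reactivated, 18.6% in GPA, 23.9% in Pruned and 26.98% in Proliferative. Between the quartiles of the members' level, 85.5 to 520.1 normalized counts, the median was 18.8%, 22.4% and 26.9% in GPA, Pruned and Proliferative for 100 members. For the 9195 other genes tested at that level it was 15.7%, 19.3% and 20.1%. In Reactivated, at 23.3 to 144 normalized counts, it was 28.2% for members and 25.8% for 6129 other genes.

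Within groups, the members also leaned towards certain libraries, whose values entered the rule only through the group means. Within Reactivated, replicate 4 was the highest library for 86 members (43%), against 22.6% of genes tested. Replicate 3 was the highest for 31 (15.5%), against 30.1%. Within Proliferative, replicate 1 was the highest for 89 members (44.5%), against 31.4% of genes tested, and replicate 2 for 30 (15%), against 28.9%. Within Pruned, replicate 4 was the highest for 19 members (9.5%), against 20.5%. Within GPA, replicate 2 was the highest for 14% of members and 20.7% of genes tested. Genes are not independent of each other, so these shares describe the libraries.

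The rule was applied again without the libraries of 1 replicate number in all 4 groups, and the 4 left-out libraries, which had no part in the choice of genes, were then read for the 200 genes so chosen. The genes were chosen with size factors of the remaining libraries, and the left-out libraries were read with size factors of all 16. The limits of the rule were set with earlier results of these data known. Without replicates 1, 2, 3 and 4 these lists shared 137, 138, 141 and 143 genes with the members. The left-out Reactivated library was the lowest of the 4 left-out libraries for 89.5%, 91.5%, 95.5% and 95% of the chosen genes. Over all genes tested it was the lowest for 28.4%, 28.1%, 28.97% and 25.8%. The Reactivated library was thus the lowest more often among the chosen genes than among all genes, which were not chosen for a low Reactivated mean. Since earlier results of these data were known when the limits were set, the left-out libraries were not independent of the rule. Nothing further is read from these shares.

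The size of the gap was smaller in the left-out libraries. Its median was 1.096, 0.91, 1.06 and 0.88 on the log2(count + 10) scale, against 1.24, 1.22, 1.23 and 1.26 in the libraries used to choose. The gap was 0.8 or more for 60.5%, 55%, 69.5% and 57.5% of the chosen genes. A gap to the lowest of 3 single libraries is smaller than one to the lowest of 3 means, so these values and those of the choice are not on equal terms. Set against single groups, the median of the left-out Reactivated library lay between -1.61 and -1.2003 relative to the GPA library, between -1.405 and -1.12 relative to Pruned and between -1.39 and -1.16 relative to Proliferative. There is 1 library a group in each round, so no test was made.

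With the groups' roles exchanged, the rule shows how common such a pattern was. Genes lowered in Reactivated alone numbered 350 and genes raised in Reactivated alone 466, by the same limits. Genes lowered in GPA alone numbered 2191 and genes raised in GPA alone 2289. In Pruned 116 genes were raised alone, and no other pattern of Pruned or Proliferative held more than 28 genes. The median gap of the first 200 genes was 1.27 for those lowered in Reactivated alone, 1.46 for those raised in Reactivated alone and 3.68 for those lowered in GPA alone. These counts were not tested against each other, and the first 200 are a different share of each list.

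The level of GPA is what set these genes apart from most others that were lowest in Reactivated. Reactivated lay 0.8 or more below each other group in 1240 genes. In 725 of them GPA was more than 0.5 above Pruned, in 103 it was more than 0.5 below, and in 62 GPA was within 0.5 of Pruned but Proliferative was not. The remaining 350 are those that met the rule, the 150 beyond the first 200 having gaps from 0.801 to 0.98.

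The members were spread over all 8 prefixes that the IDs carry, which the files do not tie to positions. The prefix Psat5g held 38 members, 19% against 16.1% of genes tested, and Psat2g held 17, 8.5% against 10.005%. The shares of the other 6 prefixes were likewise within 3 percentage points of those of the genes tested. In the order of the IDs, 11 pairs of members were 10 or fewer steps apart. The same count was not made for other sets of genes, so nothing is read from the 11 pairs. Direct neighbours were Psat4g000480 with Psat4g000520 and Psat7g218000 with Psat7g218040, which were noted after their values were seen. Psat4g000480 averaged 17.5 ± 10.4 in Reactivated, 109.7 ± 33.7 in GPA, 139 ± 89.8 in Pruned and 118 ± 34.4 in Proliferative. Psat4g000520 averaged 14.2 ± 4.06, 104 ± 31.8, 75.6 ± 16.2 and 82.5 ± 22.2 in the same order (SD, n = 4). Counting without strand could give such neighbours reads of each other, which was not tested.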

How the data were processed

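Shoot apical meristems of pea were profiled by strand-specific mRNA sequencing after poly(A) enrichment on an Illumina NovaSeq instrument, with 4 libraries in each of 4 groups, per the labels' protocols. The authors deposited raw counts of reads per gene, 1 column a library, in a table whose name says they were made by HTSeq without strand. Cutadapt, HISAT2, HTSeq and DESeq2 are named in the submitters' processing notes, and the genome build and annotation are not given in the sources used here. The table held 48559 gene IDs, of which 17007 were at 0 in every library, and no row outside the genes.

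Members were found from group means of counts divided by median-of-ratios size factors, computed over 21975 genes above 0 in every library. The members, lists and limits were chosen with earlier results of these data known. Fold changes and calls came from edgeR 4.0.16, in R 4.3.3, with glmQLFit and glmQLFTest on all 16 libraries, TMM factors, filterByExpr by group (23979 genes tested) and Benjamini-Hochberg adjustment over all genes tested. DESeq2 1.42.0 was an alternative. The fit was also run on simulated counts, and no result here rests on that run. Named by rule were the 6 members with the largest gap, the 4 others with the highest mean count over GPA, Pruned and Proliferative, and the genes at ranks 200 and 201. Other genes are named as chosen after their values were seen. Alternatives were other scaling factors and added constants, filters, group medians, fits of single pairs of groups, a replicate block, and leaving out each library. Group size factors averaged 0.783 ± 0.0764 in Reactivated, 1.198 ± 0.236 in GPA, 1.05 ± 0.112 in Pruned and 1.08 ± 0.186 in Proliferative (SD, n = 4), so the same normalized count rests on fewer reads in Reactivated. The labels call the replicates biological without saying how plants were pooled, so error terms measure the spread between these samples.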

Additional observations from a re-analysis of the deposited data

Results flagged for a closer look

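Over 60 groups of 4 libraries looked at, which were those of the 12 genes named by rule and of summary values of the members, 3 held a library far from the other 3, where chance alone marks about 1 in 20. Psat3g012680 had 581 normalized counts in Proliferative 1, with 768 to 791 in the other 3 libraries of its group. Psat7g215880, the first gene outside the limit of 200, had 198.8 in Pruned 2 and 223 in Proliferative 3, with the other 3 libraries of each group low and close together.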

How the results depend on the processing

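When each library was left out in turn, edgeR called 187 to 195 members lower in Reactivated than in GPA (33.8 to 36.2% of genes tested), 180 to 194 than in Pruned (16.7 to 22%) and 180 to 194 than in Proliferative (17.1 to 22.6%). Psat3g106880 and Psat5g119320 turned round: without Pruned 2 their log2 fold changes over Pruned were 0.24 and 0.63, and without Proliferative 3 those over Proliferative were 0.24 and 0.37. Which genes are members moved more. The rule was met by 879 genes with counts scaled by library totals and by 170 with 50 added in place of 10, against 350, and by 313 to 431 when libraries were left out. Of the 200, 133 were kept with 50 added and 137 to 186 with libraries left out. Without Pruned 2, Proliferative 3 and Proliferative 4, an alternative chosen after seeing the data, 334 genes met the rule, and 146 members were among the first 200. With library totals the median log2 fold changes of Reactivated were -2.33 over GPA, -2.08 over Pruned and -2.03 over Proliferative, where all genes shifted by like amounts.

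Members called between GPA and Pruned numbered 13, but 36 with library totals (68.2% of genes tested), 20 in a fit of those 8 libraries alone (67.9%) and 9 to 18 with libraries left out (63.9 to 68.4%). Between GPA and Proliferative they numbered 19, but 43 with library totals (66.1%) and 15 to 29 with libraries left out (60.6 to 65.9%), 29 being without Reactivated 4. Between Pruned and Proliferative 0 were called, and 0 to 1 with libraries left out (2.36 to 4.21%), 1 being without Pruned 1. The cause of these moves was not tested. Psat7g215880, outside the limit, had a log2 fold change of Reactivated over Pruned of -1.21, which became 0.012 without Pruned 2 (-1.54 to 0.012 over the libraries left out) and 0.019 without the 3 libraries. The other 11 genes named by rule kept their direction over Pruned.

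Most samples with the same replicate number did not deviate together: of 24 same-number pairs 4 had a correlation over 0.1 (range -0.376 to 0.639). The highest were 0.639 for Reactivated 2 with Proliferative 2 and 0.605 for Pruned 1 with Proliferative 1. Of 48 best matches, 6 were with the own number. With replicate number as a block, members called lower in Reactivated were 193 against GPA (35.2% of genes tested), 185 against Pruned (20%) and 184 against Proliferative (20.8%). Called in either direction were 12 for GPA against Pruned (66.4%), 20 for GPA against Proliferative (63.8%) and 0 for Pruned against Proliferative (2.51%). Depth limits the 72 members with under 100 reads over the Reactivated libraries.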
